A study of Mus musculus with 8 samples.

Results

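The effect of losing the catalytic activity of MLL3 and MLL4 was examined in epiblast stem cells (EpiSC) with 4 of the 8 bulk polyadenylated RNA-seq libraries of the series, 2 of WT EpiSC and 2 of Mll3/4 dCD EpiSC. These are all the EpiSC libraries among the labelled samples. All 4 came from male R1 mouse embryonic stem cells (ESC) kept in 2i medium with 0.4 µM PD0325901, 3 µM CHIR99021 and LIF, and then passaged for at least 8 days on fibronectin in N2B27 medium that held bFGF at 12 ng/ml and activin A at 20 ng/ml. The dCD cells carry point mutations in the catalytic domains of both Mll3 (Kmt2c) and Mll4 (Kmt2d), so that the proteins are present without methyltransferase activity. The dCD ESC line was derived from WT R1 cells and is 1 line, so that genotype and clone cannot be told apart. The table lists 32334 genes, and the 11968 that reached 1 in 2 or more of the 4 EpiSC libraries were tested.

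MLL3 and MLL4 place most of the monomethylation on lysine 4 of histone H3 at enhancers, as the enzymes of COMPASS complexes that also carry the demethylase UTX (Kdm6a). EpiSC are cultures of primed pluripotency that depend on activin and FGF. They resemble the epiblast at gastrulation, express the general pluripotency factors together with low levels of primitive streak genes, and have left the naive state of ESC and the day 2 epiblast-like state (EpiLC), from which germ cell precursors can be induced efficiently.

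Expression is given per gene as a signal, transcript abundance that the file headers call TPM, and the depth behind it is unknown. The column sums of the 4 libraries lay between 870220 and 916890, 41.9 to 43.4% of the values of a library were 0, and mitochondrial genes took 3.11 to 4.12% of a library. The 11 EpiSC markers were all measured and summed to 2511 and 2394 in WT against 2341 and 2184 in dCD. Read gene by gene in the test given below, 5 of them were higher and 3 lower in dCD. Of 7 naive markers, 5 were measured, with sums between 6.55 and 11.8. Of 9 markers of two-cell-like cells, none was measured, and Zscan4c, Zscan4d, Zscan4f and Zfp352 were at 0 in all 4 libraries. The 8 fibroblast and feeder markers summed to 24.3 and 25.6 in WT against 36.1 and 42.9 in dCD, the 7 endoderm markers (5 of them in the table) to 183 and 128 in WT against 310.1 and 276 in dCD, the 5 mesoderm markers to 4.86 and 2.57 in WT against 19.8 and 12.7 in dCD, the 5 trophoblast markers to 7.06 and 5.11 in WT against 9.6 and 16.5 in dCD, and the 5 neural markers to 23.7 and 27.7 in WT against 26.3 and 37 in dCD. The part of these cell types in the results was not tested, and in bulk libraries more cells of a type and more RNA per cell cannot be told apart.

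Kmt2c read 4.72 and 5.26 in WT against 6.06 and 6.98 in dCD and did not pass the test (log2 difference 0.33 ± 0.12, adjusted p = 0.0852). Kmt2d read 4.86 and 4.96 in WT against 6.7 and 7.93 in dCD (log2 difference 0.49 ± 0.12, adjusted p = 0.0275), and its call was lost without WT replicate 1 (adjusted p = 0.103), WT replicate 2 (0.113) or dCD replicate 2 (0.0971). A point mutation leaves the transcript in place, so these values check nothing of the genotype.

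On a scale of log2(value + 1), 3994 genes (33.4% of those tested) differed between dCD and WT EpiSC at an adjusted p under 0.05 in limma. Of these, 1979 (16.5% of genes tested) were higher and 2015 (16.8%) lower in dCD. The median log2 difference over all genes was -0.008 and the median standard error 0.10, so most calls were of small size. At least 2-fold differences were called for 677 genes (5.66%), 389 higher (3.25%) and 288 lower (2.41%). The values of dCD and WT did not overlap for 8713 genes (72.8%). Groups of 2 against 2 allow no exact permutation p under 0.333, so the calls rest on the spread shared across genes, and since no label says that the 2 libraries of a group came from separate cultures, the p-values may measure technical spread only. The count fell to 2590 without WT replicate 1, to 1718 without WT replicate 2 and to 2486 without dCD replicate 2, and was 1842 when all 8 libraries shared 1 fit and 2330 with no filter on low values. The 2-fold counts moved less, from 341 to 445 higher and from 272 to 335 lower over the 4 leave-one-out fits, but they depend on the pseudocount, with 576 higher and 481 lower at 0.1 and 129 higher and 94 lower at 5. With mitochondrial genes removed the calls split into 2276 higher and 1653 lower (57.9% higher, median log2 difference 0.036), against 49.5% higher with them.

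**Figure D1:**
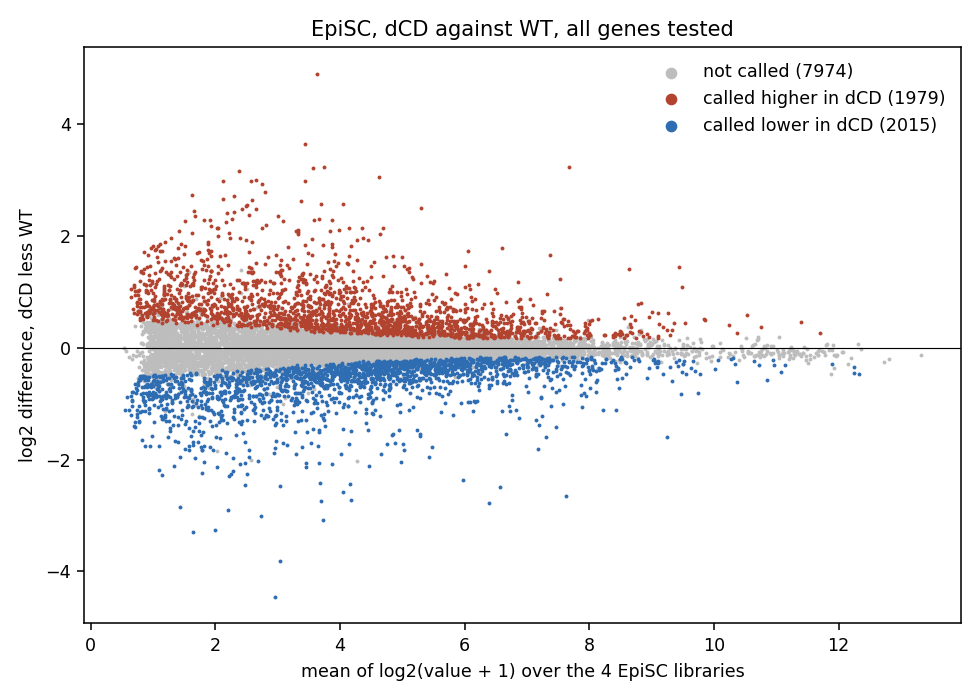
Log2 difference between dCD and WT EpiSC (vertical axis) against the mean of log2(value + 1) over the 4 libraries (horizontal axis) for the 11968 genes tested. Points are genes, coloured by call. The 1979 higher and 2015 lower genes lie on both sides of 0 at every level, and the differences of largest size are at low and middle levels.

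The genes that fell most in dCD EpiSC belonged to several unrelated roles. Pla2g1b, a secreted phospholipase A2 (chromosome 5, 115466262 to 115474722, GRCm38), read 32.4 and 27.4 in WT against 1.19 and 1.21 in dCD (log2 difference -3.81 ± 0.12, adjusted p = 0.000404). The 15 largest decreases were chosen among called genes without overlap of the groups, so their lack of overlap is no result. Kcnj3, a subunit of inward rectifier potassium channels (chromosome 2, 55435970 to 55598145), read 35.1 and 40.7 in WT against 4.09 and 3.1 in dCD (log2 difference -3.09 ± 0.14, adjusted p = 0.000484). Slc27a2, an acyl-CoA synthetase for very long chain fatty acids, read 45.9 and 45.5 in WT against 5.72 and 6.36 in dCD (log2 difference -2.73 ± 0.08, adjusted p = 0.000404). Pim2, a serine/threonine kinase, was the most abundant coding gene among the 15, with 449 and 543 in WT against 64.6 and 94.2 in dCD (log2 difference -2.65 ± 0.18, adjusted p = 0.000959). Mef2b, a MADS box transcription factor, fell with a log2 difference of -2.74 ± 0.20 and Arhgap45, a GTPase-activating protein, with -2.47 ± 0.18. Foxj1, the transcription factor that directs the formation of motile cilia, read 39.9 and 41.3 in WT against 8.02 and 5.48 in dCD (log2 difference -2.44 ± 0.16, adjusted p = 0.000856). The remaining decreases among the 15 were Fmr1nb, Sycp3, 4930447C04Rik, Cer1 and Chrd, described with their groups, and the gene models Gm20486, Gm48348 and Gm15899, whose values can share reads with near-identical copies. Gm15899 lost its call without WT replicate 1 (adjusted p = 0.0879) or WT replicate 2 (0.123).

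The genes with the largest increases included several with low values in WT. Plet1, a surface protein of placenta and epithelial progenitors (chromosome 9, 50494525 to 50505482), read 1.35 and 1.51 in WT against 16.8 and 18.1 in dCD (log2 difference 2.93 ± 0.11, adjusted p = 0.000404). Col5a2, a fibrillar collagen chain, read 0.832 and 0.629 in WT against 12.7 and 16.8 in dCD, and Nxph4, a ligand of neurexins, 0.771 and 0.673 in WT against 9.21 and 10.8 in dCD (log2 differences 3.17 ± 0.16 and 2.67 ± 0.13). Col5a2 and Nxph4 passed the filter through dCD only, so that they could only be higher there. Like the decreases, the largest increases were chosen among called genes without overlap of the groups. That both dCD libraries lay above both WT libraries is therefore no result for any of them. Six2, a homeobox factor known from kidney progenitors, read 3.97 and 2.05 in WT against 34.8 and 35.6 in dCD, and Cbln1, a secreted synaptic organiser, 4.75 and 2.3 in WT against 41.9 and 38.1 in dCD. Both had a WT replicate 1 above WT replicate 2, a spread that was small beside the distance to dCD (log2 differences 3.22 ± 0.22 and 3.23 ± 0.25). Dpf3, a subunit of BAF complexes known from heart and muscle, read 1.86 and 0.717 in WT against 17 and 16.4 in dCD (log2 difference 3.00 ± 0.24). The pseudogene-like model Gm12918 read 0.00224 and 4.12 in WT against 44.8 and 101 in dCD, with wide differences within each group (log2 difference 4.91 ± 0.77, adjusted p = 0.00731).

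**Figure D2:**
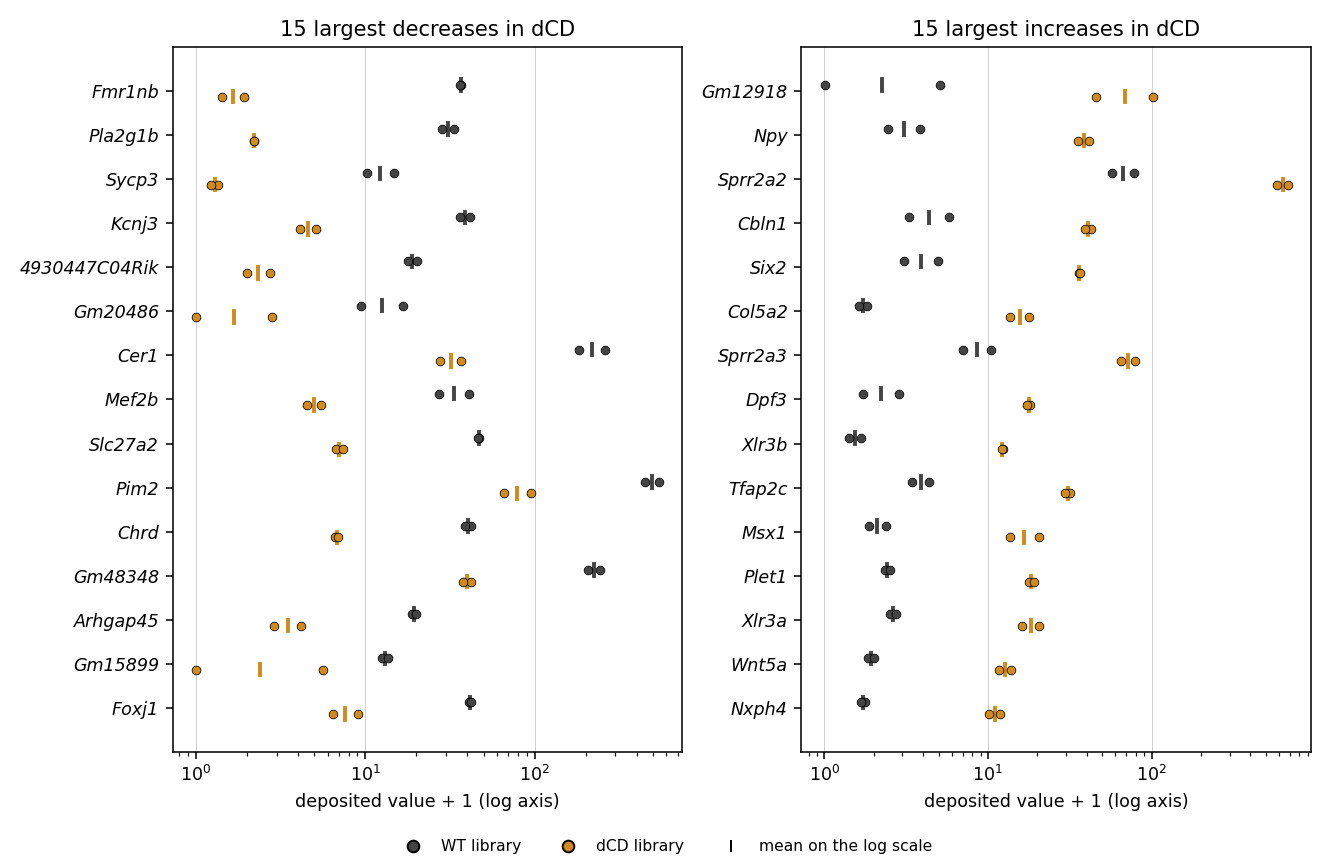
Values of the 15 called genes with the largest decrease (left) and the 15 with the largest increase (right) in dCD EpiSC, among genes with a mean of at least 5. The horizontal axis is the deposited value plus 1 on a log scale, points are single libraries (grey WT, orange dCD) and bars the mean on the log scale. Only genes whose WT and dCD points do not overlap were eligible, so the lack of overlap in the 30 genes is no result.

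Most measured genes of the primitive streak rose. Of 30 streak and early mesoderm genes listed, 23 were measured, and 19 rose, 2 fell and 2 did not pass the test, with a median log2 difference of 1.28 against -0.008 over all genes. Of the 23, 4 passed the filter through 1 group only. Among the 17 with a mean of at least 5, 14 rose and 2 fell, where 16.4% and 17.5% of all such genes did. Leaving out 1 library left 16 to 21 of the 23 called. Promoters of Msgn1 and Sp5, both described here and both known as Wnt targets, are shown as examples with TCAAAG, the core of the TCF/LEF motif, in capitals on either strand. This core was in the 300-base promoter window of 6 of 17 streak genes (35.3%) and in 11.4% of all 9087 tested genes with a window, a description of letters and not of binding. All 6 members with it rose, and of the 11 without it 10 rose and 1 fell. The 250 bases before the RefSeq start are printed here and for the promoters that follow, without the last 50 bases of the window.
Msgn1, chr12:11208949-11209198, minus strand, GRCm38.p6: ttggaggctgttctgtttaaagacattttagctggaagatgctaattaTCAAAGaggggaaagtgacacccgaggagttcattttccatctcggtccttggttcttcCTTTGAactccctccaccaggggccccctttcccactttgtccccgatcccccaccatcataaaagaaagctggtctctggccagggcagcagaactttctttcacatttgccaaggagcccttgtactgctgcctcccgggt
Sp5, chr2:70474673-70474922, plus strand, GRCm38.p6: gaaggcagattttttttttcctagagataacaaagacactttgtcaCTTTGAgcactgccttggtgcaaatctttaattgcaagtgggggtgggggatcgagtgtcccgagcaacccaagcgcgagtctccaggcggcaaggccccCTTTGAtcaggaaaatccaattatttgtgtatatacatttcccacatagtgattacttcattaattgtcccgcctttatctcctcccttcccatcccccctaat

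Msgn1, a transcription factor of presomitic mesoderm, read 0.692 and 0.498 in WT against 5.95 and 7.68 in dCD (log2 difference 2.29 ± 0.16, adjusted p = 0.000985). Rspo3, a secreted amplifier of Wnt signals, read 4.84 and 4.05 in WT against 23 and 28.2 in dCD (log2 difference 2.29 ± 0.13, adjusted p = 0.000689). Msgn1, like Mesp1 described below, passed the filter through dCD only, so that it could only be higher there. Rspo3 was clear of WT in both dCD libraries. The Wnt ligand Wnt3, which is needed for streak formation in the mouse, read 10.7 and 7.46 in WT against 30.3 and 30.1 in dCD (log2 difference 1.65 ± 0.15, adjusted p = 0.00179). T (Brachyury), the classical streak marker and already abundant in WT, read 241 and 196 in WT against 292 and 319 in dCD, a smaller difference of 0.49 ± 0.10 that was lost without WT replicate 2 (adjusted p = 0.0559) or dCD replicate 2 (0.0728). Mixl1, Sp5 and Mesp1 fell outside the rule for naming genes and were chosen after their values were seen. Mixl1, a homeobox factor of mesendoderm, read 25.7 and 9.35 in WT against 87.8 and 98.2 in dCD, with WT replicate 1 well above WT replicate 2 (log2 difference 2.50 ± 0.41). Evx1, a homeobox factor of the posterior streak, read 4.74 and 2.04 in WT against 24.7 and 25.3 in dCD (log2 difference 2.63 ± 0.28). Eomes, a T-box factor of mesendoderm, read 66.3 and 39.8 in WT against 195 and 167 in dCD (log2 difference 1.80 ± 0.23), and Sp5 22.7 and 15.5 in WT against 52 and 54.8 in dCD (log2 difference 1.46 ± 0.16). In all of these genes WT replicate 1 was the higher of the WT libraries, and the lower dCD library was still above it. For Msgn1 the latter had to be so. Mesp1, a marker of nascent mesoderm, stayed low at 0.801 and 0.16 in WT against 4.02 and 1.71 in dCD, and its call (log2 difference 1.35 ± 0.35) was lost without WT replicate 2 (adjusted p = 0.111) or dCD replicate 1 (0.0751).

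The exceptions in this list were Apela, the secreted ligand of the apelin receptor, at 158 and 172 in WT against 75.9 and 76 in dCD (log2 difference -1.11 ± 0.06, adjusted p = 0.000628), and the Wnt ligand Wnt8a at 23.6 and 20.5 in WT against 5.09 and 3.56 in dCD (log2 difference -2.13 ± 0.16, adjusted p = 0.00112). Both were lower in both dCD libraries than in either WT library.

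Genes of the node, the organiser at the tip of the streak, and of axial mesendoderm moved in both directions. Of 18 listed and measured, 9 rose and 5 fell (median log2 difference 0.56), and 1 passed the filter through 1 group only. The genes that fell were Cer1, Chrd, Foxj1, Noto and Shh. Cer1, a secreted antagonist of Nodal, BMP and Wnt, read 261 and 181 in WT against 26.7 and 36 in dCD (log2 difference -2.77 ± 0.20, adjusted p = 0.00102). Chrd (Chordin), a BMP antagonist of the node, read 41 and 37.8 in WT against 5.64 and 5.93 in dCD (log2 difference -2.57 ± 0.08, adjusted p = 0.000404). Noto, the homeobox factor of the node and notochord that acts ahead of Foxj1 in node ciliation, read 3.97 and 4.74 in WT against 0.56 and 0.492 in dCD (log2 difference -1.81 ± 0.14, adjusted p = 0.00122). Shh, the ligand that the notochord sends, read 9.96 and 11 in WT against 4.84 and 4.19 in dCD (log2 difference -1.06 ± 0.12, adjusted p = 0.0027). All 5 were lower in both dCD libraries. Noto passed the filter through WT only, so for it this had to be so. Cer1, Chrd and Foxj1 are also among the leading decreases, which were chosen without overlap of the groups. Other genes of the same territory did not fall. Foxa2, a forkhead factor of node and endoderm, read 78.4 and 57.8 in WT against 93.8 and 78.1 in dCD and did not pass the test (log2 difference 0.34 ± 0.16, adjusted p = 0.141), and Nog (Noggin), a second BMP antagonist, read 10.1 and 10.7 in WT against 8.2 and 10.4 in dCD (log2 difference -0.16 ± 0.13, adjusted p = 0.366). The secreted Wnt antagonists Frzb and Dkk1 rose, Frzb with 18 and 13.1 in WT against 55.1 and 45.4 in dCD (log2 difference 1.64 ± 0.16) and Dkk1 with 31.5 and 24.6 in WT against 60.7 and 68.7 in dCD (log2 difference 1.19 ± 0.13). Foxa2, Nog, Frzb and Dkk1 were named after their values were seen.

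**Figure D3:**
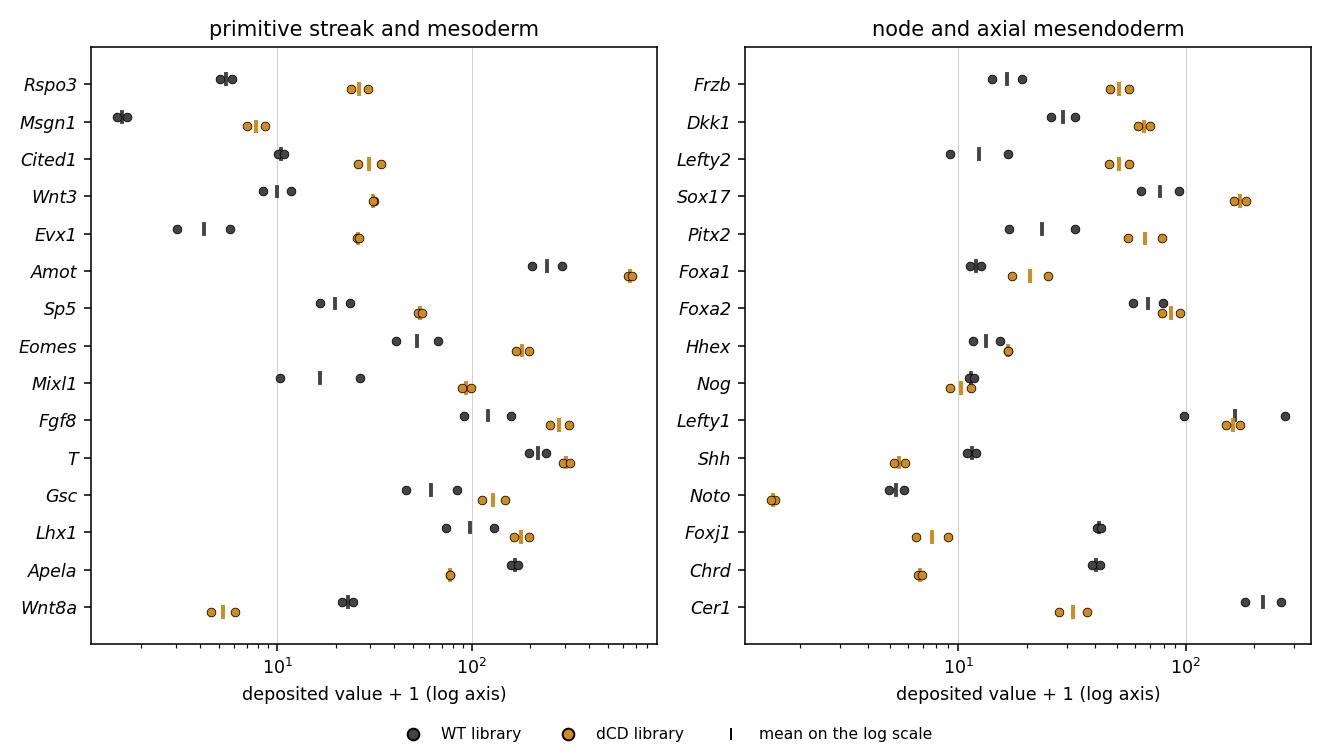
Values of 15 genes of the primitive streak list (left) and 15 of the node list and its neighbours (right) in the 4 EpiSC libraries, chosen after their values were seen. The horizontal axis is the deposited value plus 1 on a log scale, points are libraries (grey WT, orange dCD) and bars the mean on the log scale. On the left dCD points lie to the right of WT for all but Apela and Wnt8a, and on the right Cer1, Chrd, Foxj1, Noto and Shh lie to the left.

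Ligands and feedback genes of the signalling pathways that pattern the gastrulating epiblast were higher more often than lower. Gene lists can share members, as Cer1 is in the node list and in that of the Nodal pathway. Their counts are therefore not separate observations. Of 31 measured genes among 39 Wnt ligands, modulators and feedback targets, 17 rose and 4 fell (median log2 difference 0.51), and 3 passed through 1 group only. Wnt5a, a ligand of non-canonical signalling and of axis elongation, read 0.845 and 1.02 in WT against 10.6 and 12.8 in dCD (log2 difference 2.71 ± 0.14, adjusted p = 0.000538). Wnt11, a second non-canonical ligand, read 7.5 and 5.91 in WT against 29.7 and 24.1 in dCD (log2 difference 1.86 ± 0.15, adjusted p = 0.00122). Axin2, the common negative feedback target and named after its values were seen, read 13.8 and 9.75 in WT against 21.3 and 23.8 in dCD (log2 difference 0.90 ± 0.16, adjusted p = 0.0109). Its call was lost without dCD replicate 2 (adjusted p = 0.0516).

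Of 21 measured BMP pathway genes (30 listed, 3 through 1 group only), 11 rose and 2 fell (median log2 difference 0.47). The ligand Bmp4 read 7.01 and 6.72 in WT against 23.5 and 29.9 in dCD (log2 difference 1.81 ± 0.13, adjusted p = 0.000985). The homeobox gene Msx1 and the inhibitor of differentiation Id3, both standard BMP target genes, read 1.38 and 0.862 in WT against 12.6 and 19.4 in dCD and 48.8 and 40.7 in WT against 92.6 and 104 in dCD (log2 differences 2.98 ± 0.23 and 1.12 ± 0.10). Bmp4, Msx1 and Id3 were higher in each dCD library than in either WT library, and 8 of the 21 genes did not pass the test. Msx1 is also among the leading increases, which were chosen without overlap of the groups. Of the BMP antagonists described above, Cer1 and Chrd were lower in dCD and Nog did not pass the test. A link between ligand, targets and antagonists was not tested.

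Of 22 measured genes of the Nodal and activin pathway (27 listed, 2 through 1 group only), 7 rose and 2 fell (median log2 difference 0.26). Lefty2, a feedback inhibitor of Nodal, read 15.6 and 8.23 in WT against 55.3 and 45 in dCD (log2 difference 2.04 ± 0.27, adjusted p = 0.00439), and Tgif1 and Skil, a pair of repressors of SMAD-driven transcription, rose by smaller steps of 0.45 ± 0.05 and 0.46 ± 0.07. Lefty1 varied too much between the WT libraries to be read, at 274 and 97.1 in WT against 172 and 149 in dCD (log2 difference -0.02 ± 0.44, adjusted p = 0.972). Besides Cer1, the gene that fell was the ligand Gdf1, at 1.79 and 1.98 in WT against 0.562 and 0.608 in dCD (log2 difference -0.87 ± 0.14). Lefty1 was named after its values were seen, and without WT replicate 1 its log2 difference was 0.72 (adjusted p = 0.00661).

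Of 24 measured genes of FGF signalling (31 listed, 2 through 1 group only), 10 rose and 4 fell (median log2 difference 0.21). The ligand Fgf4, which ESC and early epiblast express, read 12.4 and 15.4 in WT against 2.82 and 3.18 in dCD (log2 difference -1.89 ± 0.13, adjusted p = 0.000988), and Fgfbp1, a carrier that frees FGFs from matrix, 78.3 and 90.1 in WT against 21 and 20.6 in dCD (log2 difference -1.96 ± 0.08, adjusted p = 0.000421). Spred2, an inhibitor of the ERK cascade, and the receptor Fgfr1 rose by 0.48 ± 0.06 and 0.34 ± 0.05. Fgf5, the ligand that marks primed epiblast, read 243 and 215 in WT against 266 and 199.7 in dCD and did not pass the test (log2 difference 0.01 ± 0.14, adjusted p = 0.949).

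Of 17 measured Notch pathway genes (23 listed), 10 rose and 3 fell (median log2 difference 0.43). The targets Hey1 and Nrarp read 5.11 and 4.02 in WT against 13.2 and 14.9 in dCD and 6.34 and 4.8 in WT against 14.4 and 15.1 in dCD (log2 differences 1.44 ± 0.13 and 1.27 ± 0.14). Mfng, a glycosyltransferase that modifies Notch receptors, and Dtx1, a ubiquitin ligase of the pathway, fell, Mfng with 4.25 and 4.13 in WT against 0.858 and 1.04 in dCD (log2 difference -1.41 ± 0.13) and Dtx1 with 13.7 and 16.8 in WT against 3.28 and 4.5 in dCD (log2 difference -1.73 ± 0.16).

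The pluripotency network showed a different picture. Of 16 measured core pluripotency factors (17 listed), 3 rose and 8 fell (median log2 difference -0.29), and 5 to 11 kept a call when 1 library was left out. Pou5f1, the factor OCT4, read 1140 and 1223 in WT against 942 and 869.5 in dCD (log2 difference -0.38 ± 0.07, adjusted p = 0.0102), a call lost without WT replicate 2 (adjusted p = 0.0975). Sox2, its partner, read 28.9 and 32.1 in WT against 25.1 and 30.01 in dCD and did not pass the test (log2 difference -0.14 ± 0.10, adjusted p = 0.321). Nanog moved the other way, with 56.7 and 47.7 in WT against 106 and 87.3 in dCD (log2 difference 0.87 ± 0.12, adjusted p = 0.00475). Utf1, a chromatin-bound factor of undifferentiated cells, fell, with 149 and 163 in WT against 55.6 and 89.1 in dCD (log2 difference -1.13 ± 0.20). Of 21 measured genes of the formative and primed epiblast (22 listed), 8 rose and 4 fell (median 0.09). Otx2, the homeobox factor of the primed state, read 73.4 and 55.1 in WT against 127 and 99 in dCD (log2 difference 0.81 ± 0.16, adjusted p = 0.016), Pou3f1 (OCT6) 40.3 and 41.6 in WT against 22.6 and 32.3 in dCD (log2 difference -0.58 ± 0.16, adjusted p = 0.0362), and the DNA methyltransferase Dnmt3b 391 and 394 in WT against 358 and 356 in dCD without passing the test (log2 difference -0.14 ± 0.05, adjusted p = 0.0675). Pou3f1 lost its call without WT replicate 1 (adjusted p = 0.0715) or WT replicate 2 (0.109), and was named after its values were seen.

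Naive genes moved in both directions. Of 25 listed, 17 were measured, 3 of them through 1 group only, and 6 rose and 4 fell (median log2 difference 0.03). Among the 5 with a mean of at least 5, 1 rose and 1 fell (median 0.02). Nr0b1 (DAX1), an X-linked nuclear receptor of the naive network, rose, with 0.185 and 0.188 in WT against 5.84 and 8.27 in dCD (log2 difference 2.75 ± 0.18, adjusted p = 0.000864), while Zfp42 (REX1) fell, with 3.1 and 2.97 in WT against 0.5 and 0.956 in dCD (log2 difference -1.24 ± 0.17, adjusted p = 0.00508) and Dppa5a with 6.27 and 7.08 in WT against 2.17 and 2.19 in dCD (log2 difference -1.27 ± 0.12, adjusted p = 0.00183). Nr0b1 passed the filter through dCD only and could only be higher there, and Zfp42 passed through WT only and could only be lower in dCD. Klf4, one of the reprogramming factors, read 1.4 and 1.57 in WT against 2.43 and 3.27 in dCD (log2 difference 0.62 ± 0.16, adjusted p = 0.0304). Its call was lost in the fits without WT replicate 1, WT replicate 2 or dCD replicate 2. Esrrb, an orphan nuclear receptor, read 1 and 0.802 in WT against 0.623 and 1.33 in dCD and did not pass the test (log2 difference 0.03 ± 0.21, adjusted p = 0.912).

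Of 10 measured genes of germ cell specification (21 listed), 5 rose and 2 fell, with a median log2 difference of 0.16. Among the 9 with a mean of at least 5, 4 rose and 2 fell, with a median of -0.04. Tfap2c (AP2 gamma), which acts downstream of Prdm1 in mouse germ cell specification, read 3.38 and 2.43 in WT against 30.7 and 28.7 in dCD (log2 difference 2.98 ± 0.14, adjusted p = 0.000495), and Prdm1 (BLIMP1) itself 9.4 and 4.52 in WT against 31.9 and 31.7 in dCD (log2 difference 2.11 ± 0.28, adjusted p = 0.00429). The receptor Kit, needed for survival and migration of germ cells, read 20.5 and 13.4 in WT against 46.7 and 48.3 in dCD (log2 difference 1.46 ± 0.18, adjusted p = 0.00368). Prdm14, the third specification factor, was under the filter at 0.0346 and 0.0368 in WT against 0.323 and 0.158 in dCD. Dppa3, a germ cell marker, was also under the filter and lower in dCD, at 0.419 and 0.432 in WT against 0.0864 and 0.193 in dCD.

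None of the measured meiotic and piRNA genes rose. Of 46 listed, 15 were measured, and 9 fell, 7 of them at least 2-fold (median log2 difference -0.99). Of the 15, 3 passed the filter through 1 group only. Among them were Sycp3 and Syce3, which passed through WT and so could only be lower in dCD. Leaving out 1 library left 8 or 9 called. Many genes of this kind hold the E-box CACGTG in their promoters, and the promoter of Sycp3 is shown for that reason with its E-boxes in capitals. CACGTG (the same letters on both strands) was in 6 of 14 windows of this list (42.9%) and in 10.3% of all tested genes. Of the 6 members with it 2 fell, and of the 8 without it 6 fell.
Sycp3, chr10:88459337-88459586, plus strand, GRCm38.p6: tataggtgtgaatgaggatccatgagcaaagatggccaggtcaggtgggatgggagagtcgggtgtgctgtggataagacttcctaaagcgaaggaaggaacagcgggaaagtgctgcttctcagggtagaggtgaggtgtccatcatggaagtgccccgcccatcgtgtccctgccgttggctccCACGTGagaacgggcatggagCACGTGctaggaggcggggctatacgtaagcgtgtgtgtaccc

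Sycp3, a structural protein of the synaptonemal complex that pairs chromosomes in meiosis, read 9.26 and 13.7 in WT against 0.355 and 0.226 in dCD (log2 difference -3.25 ± 0.20, adjusted p = 0.000689). Syce3 and Syce2, of the central element of the same complex, read 2.9 and 2.21 in WT against 0.103 and 0 in dCD and 85.7 and 85.4 in WT against 47.2 and 38.5 in dCD (log2 differences -1.75 ± 0.16 and -0.99 ± 0.10). 4930447C04Rik, which encodes a synaptonemal complex protein known as SIX6OS1 in the mouse, read 16.8 and 19.2 in WT against 1.75 and 0.993 in dCD (log2 difference -3.02 ± 0.18, adjusted p = 0.000689). These 4 genes were lower in both dCD libraries, while Sycp1, the transverse filament protein of the complex, was low and did not pass the test, at 0.586 and 1.3 in WT against 1.42 and 0.722 in dCD (log2 difference 0.10 ± 0.25, adjusted p = 0.791). Sycp1 was named after its values were seen. Tdrkh, a Tudor protein of piRNA biogenesis, read 46 and 50.01 in WT against 16.3 and 15 in dCD (log2 difference -1.56 ± 0.08, adjusted p = 0.000538). Dnmt3l, the cofactor of de novo DNA methylation in germ cells, read 3.1 and 2.72 in WT against 0.237 and 0.0847 in dCD (log2 difference -1.75 ± 0.15, adjusted p = 0.00154). Dnmt3l also passed the filter through WT only.

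X-linked genes of the Rhox, Xlr and tumour antigen families moved in both directions by large steps. Of 36 listed, 8 were measured, 5 of them through 1 group only, and 4 rose and 3 fell. Fmr1nb, a tumour antigen gene next to Fmr1, had the lowest log2 difference of all, with 36 and 35.2 in WT against 0.432 and 0.921 in dCD (log2 difference -4.46 ± 0.16, adjusted p = 0.000404). Mageb16 fell, with 4.04 and 4.46 in WT against 0.161 and 0.265 in dCD (log2 difference -2.11 ± 0.14) and Trap1a with 21.8 and 22.2 in WT against 4.8 and 6.97 in dCD (log2 difference -1.76 ± 0.16). Xlr3a and Xlr3b, near-identical copies whose reads cannot be fully told apart, rose, with 1.52 and 1.75 in WT against 19.5 and 15.2 in dCD and 0.669 and 0.416 in WT against 11.3 and 11.2 in dCD (log2 differences 2.79 ± 0.15 and 2.99 ± 0.13). Rising and falling genes lie on 1 chromosome, and the chromosome X median over 467 genes was -0.03.

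Homeobox and posterior patterning genes rose more often than they fell. Of 23 measured homeobox genes outside the Hox clusters (33 listed, 6 through 1 group only), 16 rose and 2 fell (median log2 difference 0.91), and of the 13 with a mean of at least 5, 8 rose and 1 fell. Meis1, a cofactor of HOX proteins, read 0.246 and 0.197 in WT against 2.58 and 3.56 in dCD (log2 difference 1.73 ± 0.17), and Msx2 0.351 and 0.231 in WT against 4.1 and 6.68 in dCD (log2 difference 2.28 ± 0.22). Meis1 and Msx2 passed the filter through dCD only, so that they could only be higher there. Of 13 measured genes of the posterior axis (20 listed), 11 rose and 1 fell (median log2 difference 0.97), Sall4, a zinc finger factor of stem cells and limbs, among them with 88.5 and 82.6 in WT against 122 and 127 in dCD (log2 difference 0.54 ± 0.06). The Hox clusters stayed almost silent: 3 of 39 genes were measured, each through dCD only, so that they had to be higher there and their calls are no result about the clusters. Hoxd1 read 0.049 and 0.195 in WT against 2.3 and 3.76 in dCD (log2 difference 1.82 ± 0.21) and Hoxa10 0.0873 and 0.0143 in WT against 1.06 and 5.34 in dCD, whose dCD libraries lay far apart and whose call was lost without WT replicate 1 (adjusted p = 0.0728) or WT replicate 2 (0.105).

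Of 13 measured neural genes (33 listed, 3 through 1 group only), 7 rose and 3 fell (median log2 difference 0.95). Fabp7, the fatty acid binding protein of radial glia, read 6.39 and 5.25 in WT against 39.3 and 39.3 in dCD (log2 difference 2.57 ± 0.10, adjusted p = 0.000407). Npy, a neuropeptide, read 2.82 and 1.45 in WT against 40.7 and 34.3 in dCD (log2 difference 3.65 ± 0.22, adjusted p = 0.000689). Stmn2, a tubulin-binding protein of neurons, was abundant and fell, with 232 and 234 in WT against 141 and 127 in dCD (log2 difference -0.79 ± 0.06, adjusted p = 0.00128). Sox1, the defining factor of neural progenitors and a marker read whatever its value, was under the filter at 0.171 and 0.222 in WT against 0.485 and 0.535 in dCD.

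Of 17 measured endoderm genes (30 listed, 2 through 1 group only), 9 rose and 4 fell. Gata4, a zinc finger factor of endoderm and heart, read 10.4 and 7.07 in WT against 32 and 34.1 in dCD (log2 difference 1.83 ± 0.16, adjusted p = 0.00165), and the basement membrane genes Col4a1 and Lamb1 rose by 0.70 ± 0.06 and 0.84 ± 0.09. Of 16 measured trophoblast genes (26 listed, 2 through 1 group only), 8 rose and 1 fell, and the median was 0.37. Gata3 read 0.884 and 0.78 in WT against 3.13 and 5.17 in dCD (log2 difference 1.46 ± 0.21), and Cdx2, the caudal factor shared by trophoblast and posterior embryo and named after its values were seen, 1.76 and 1.23 in WT against 3.79 and 8.86 in dCD (log2 difference 1.47 ± 0.34), with a call that was lost without WT replicate 2 (adjusted p = 0.0769). The marker sums given above include Gata4, Gata3 and Cdx2, so they do not stand apart from these lists, and their part was not tested. Sox17 was a large part of the endoderm sums, at 92.8 and 62.5 in WT against 183 and 163 in dCD. Of 4 measured trophoblast markers, 2 rose and 1 fell, Ascl2, at 3.36 and 2.3 in WT against 0.858 and 1 in dCD.

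Matrix and mesenchymal genes rose more often than they fell, while epithelial junction genes were mixed. Of 39 measured genes of collagens and matrix (50 listed, 5 through 1 group only), 23 rose and 3 fell (median log2 difference 0.67), and among the 24 with a mean of at least 5, 18 rose and 1 fell. Fn1 (fibronectin) read 99.4 and 86 in WT against 280.3 and 309 in dCD (log2 difference 1.66 ± 0.09, adjusted p = 0.000538), and Col1a2, a chain of type I collagen, 5.91 and 5.64 in WT against 14.2 and 15.9 in dCD (log2 difference 1.24 ± 0.10, adjusted p = 0.00129). Mmp14, a membrane-bound collagenase, read 38.7 and 32.6 in WT against 113 and 127 in dCD (log2 difference 1.73 ± 0.10, adjusted p = 0.000689). Vim (vimentin), the intermediate filament of mesenchymal cells, read 503 and 477 in WT against 996 and 1104 in dCD (log2 difference 1.10 ± 0.07, adjusted p = 0.000767), and Cdh11, a mesenchymal cadherin, 2.08 and 0.857 in WT against 13 and 15.1 in dCD (log2 difference 2.65 ± 0.25). Of the whole mesenchymal list, 9 of 17 measured genes rose and 2 fell. Fibroblast and feeder markers did not follow as a group: of 8 measured, 2 rose (Col1a2 and Col3a1) and 3 fell (S100a4, Col1a1 and Thy1). Col1a1 lost its call without any 1 of the 4 libraries, with adjusted p between 0.059 and 0.147 in these fits, and so did Thy1, between 0.0644 and 0.253. Col3a1 lost it without dCD replicate 2 (adjusted p = 0.0516).

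The epithelial adhesion genes Epcam and Cdh1 (E-cadherin) fell, with 241 and 251 in WT against 152 and 153 in dCD and with 199 and 204 in WT against 140.4 and 135 in dCD (log2 differences -0.69 ± 0.05 and -0.55 ± 0.05), and Cdh2 (N-cadherin), which replaces E-cadherin in cells that leave the epiblast, rose, with 55.9 and 46.5 in WT against 118 and 152 in dCD (log2 difference 1.38 ± 0.14). Grhl3, a grainyhead factor of surface ectoderm, rose, with 6.56 and 4.93 in WT against 16.3 and 14.9 in dCD (log2 difference 1.31 ± 0.14), and over the 21 measured junction genes (24 listed, 1 through 1 group only) 5 rose and 6 fell. Of 16 measured genes of the cornified envelope and epithelial keratins (36 listed, 2 through 1 group only), 11 rose and 1 fell (median log2 difference 0.47). Sprr2a2 read 77.1 and 55.9 in WT against 587 and 680 in dCD and Sprr2a3 9.45 and 6.05 in WT against 64 and 78.2 in dCD (log2 differences 3.25 ± 0.15 and 3.06 ± 0.20). These small proline-rich genes are near-identical copies and their values can share reads. S100a6, a calcium-binding protein, was the member that fell, with 212 and 193 in WT against 114 and 105 in dCD (log2 difference -0.88 ± 0.07). Of 40 measured semaphorins, plexins, ephrins and their receptors (46 listed, 3 through 1 group only), which guide migrating cells and axons, 22 rose and 5 fell (median log2 difference 0.54). Sema3a, a repulsive ligand, read 0.934 and 0.946 in WT against 7.33 and 7.88 in dCD, and the ephrin receptor Epha4 4.34 and 3.48 in WT against 18.8 and 20.7 in dCD (log2 differences 2.15 ± 0.12 and 2.08 ± 0.12).

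Interferon response genes rose far more often than they fell. Of 31 measured (38 listed, 2 through 1 group only), 17 rose and 2 fell (median log2 difference 0.55). Usp18, the protease that removes ISG15, read 6.38 and 5.04 in WT against 31.2 and 31.7 in dCD (log2 difference 2.28 ± 0.12, adjusted p = 0.000538). The guanylate binding proteins Gbp7 and Gbp3 read 2.83 and 2.61 in WT against 9.73 and 9.64 in dCD and 10.4 and 7.62 in WT against 34.1 and 39.9 in dCD (log2 differences 1.52 ± 0.11 and 1.93 ± 0.15), and the GTPase Irgm1 44.2 and 32.2 in WT against 101 and 113 in dCD (log2 difference 1.47 ± 0.15). Of 13 measured antigen presentation genes (17 listed), 7 rose and none fell, among them B2m, the light chain of MHC class I, with 77.4 and 80.5 in WT against 101 and 114 in dCD (log2 difference 0.43 ± 0.07, adjusted p = 0.00832). Of 25 measured imprinted genes (40 listed, 1 through 1 group only), 11 rose and 4 fell, none of the 11 by 2-fold. The cell cycle inhibitor Cdkn1c (p57), expressed from the maternal allele, fell, with 25.5 and 24.6 in WT against 6.53 and 4.16 in dCD (log2 difference -2.06 ± 0.18, adjusted p = 0.00159), while the paternally expressed Peg3 rose, with 102 and 104 in WT against 144 and 142 in dCD (log2 difference 0.47 ± 0.05).

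Most measured genes of the integrated stress response fell. In this response, phosphorylated eIF2 alpha raises translation of the transcription factor ATF4, which switches on amino acid transporters and enzymes of amino acid synthesis. Of 21 measured genes (24 listed), 17 fell, 9 of them at least 2-fold, and none rose (median log2 difference -0.96). Leaving out 1 library left 16 or 17 called. The promoters of Chac1 and Asns, both known ATF4 targets, are shown with TGATGNAA, the C/EBP-ATF composite motif, in capitals (N is any base, either strand). It was in 6 of 18 windows of the list (33.3%) and in 2.21% of all tested genes. Of the 6 members with it 5 fell, and of the 12 without it 9 fell. The list was drawn up by hand from genes of this response, so the share describes the list and not the effect of dCD.
Chac1, chr2:119350992-119351241, plus strand, GRCm38.p6: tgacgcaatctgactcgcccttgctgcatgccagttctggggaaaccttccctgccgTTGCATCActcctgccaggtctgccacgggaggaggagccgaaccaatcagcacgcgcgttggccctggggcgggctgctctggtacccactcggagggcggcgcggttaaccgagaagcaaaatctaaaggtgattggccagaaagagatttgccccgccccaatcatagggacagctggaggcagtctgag
Asns, chr6:7693210-7693459, minus strand, GRCm38.p6: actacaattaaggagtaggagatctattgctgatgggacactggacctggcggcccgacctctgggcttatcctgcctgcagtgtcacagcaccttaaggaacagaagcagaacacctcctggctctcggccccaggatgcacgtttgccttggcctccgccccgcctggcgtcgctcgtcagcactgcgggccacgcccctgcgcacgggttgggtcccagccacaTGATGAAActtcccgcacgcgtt

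Mthfd2, the mitochondrial folate enzyme, read 167 and 195 in WT against 77.5 and 72.1 in dCD (log2 difference -1.26 ± 0.09, adjusted p = 0.000959). The transporter of large neutral amino acids Slc7a5 read 210.2 and 251 in WT against 102 and 93.9 in dCD (log2 difference -1.22 ± 0.09, adjusted p = 0.00115), and Slc7a3, which carries cationic amino acids, 131 and 156 in WT against 61.9 and 68.4 in dCD (log2 difference -1.12 ± 0.10, adjusted p = 0.00157). In each of these genes both WT libraries were above both dCD libraries. Pck2, the mitochondrial PEP carboxykinase, read 72 and 92 in WT against 26.6 and 20.1 in dCD (log2 difference -1.77 ± 0.16, adjusted p = 0.00175). Chac1, which degrades glutathione, read 57.4 and 68.6 in WT against 18.6 and 11.2 in dCD (log2 difference -2.04 ± 0.22, adjusted p = 0.00257). Asns, which makes asparagine, read 302 and 379.8 in WT against 176 and 151 in dCD (log2 difference -1.05 ± 0.12, adjusted p = 0.00337). Trib3, a pseudokinase induced late in the response, read 52.2 and 70.02 in WT against 19 and 14 in dCD (log2 difference -1.83 ± 0.18, adjusted p = 0.00211). Pck2, Chac1, Asns and Trib3 were named after their values were seen.

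Genes of glycolysis and of the response to low oxygen fell more often than they rose. Of 27 measured (29 listed), 14 fell and 1 rose (median log2 difference -0.30), and 8 to 17 were called without 1 library. Ddit4 (REDD1), an inhibitor of mTORC1 that low oxygen induces, read 174 and 277 in WT against 92.5 and 85.6 in dCD (log2 difference -1.29 ± 0.20, adjusted p = 0.00741) and was named after its values were seen. Its promoter is shown with ACGTGC, a form of the hypoxia response element core, in capitals. ACGTGC was in 13 of 26 windows of this list (50%) and in 8.3% of all tested genes, searched on both strands, and it overlaps CACGTG wherever that E-box is followed by C. Of the 13 members with it 6 fell, and of the 13 without it 8 fell. This list too was drawn up by hand, so the share describes the list and not the effect of dCD.
Ddit4, chr10:59951771-59952020, minus strand, GRCm38.p6: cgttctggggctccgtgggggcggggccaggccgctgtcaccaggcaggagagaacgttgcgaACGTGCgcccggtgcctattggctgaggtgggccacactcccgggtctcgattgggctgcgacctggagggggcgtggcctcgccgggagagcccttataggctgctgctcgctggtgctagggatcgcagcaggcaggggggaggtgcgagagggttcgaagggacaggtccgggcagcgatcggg

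Pdk1, the kinase that shuts pyruvate out of the citric acid cycle, read 46.3 and 50 in WT against 19.2 and 13.1 in dCD (log2 difference -1.54 ± 0.17, adjusted p = 0.00261). Slc16a3 (MCT4), which exports lactate, read 284 and 296 in WT against 131 and 88.6 in dCD (log2 difference -1.42 ± 0.17, adjusted p = 0.00345), and Pfkl, a phosphofructokinase, 186 and 203 in WT against 135 and 108 in dCD (log2 difference -0.68 ± 0.11, adjusted p = 0.0074). In all of them dCD replicate 2 was below dCD replicate 1. The exception was the neuronal-type glucose transporter Slc2a3 (GLUT3), which rose, with 333 and 356 in WT against 626 and 572 in dCD (log2 difference 0.80 ± 0.07, adjusted p = 0.00142).

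Of 22 measured proliferation genes (24 listed), 13 fell and 2 rose (median log2 difference -0.21). The genes that fell did so by small steps, such as the mitotic cyclin Ccnb1 with 311 and 324 in WT against 245 and 234 in dCD and the replication licensing factor Mcm6 with 208 and 216 in WT against 168 and 158 in dCD (log2 differences -0.41 ± 0.05 and -0.37 ± 0.05). The genes that rose were the D-type cyclin Ccnd2, at 16.9 and 20.3 in WT against 42.1 and 39.9 in dCD (log2 difference 1.11 ± 0.10), and Cdkn2a, which encodes the inhibitors p16 and p19, at 31.8 and 32.5 in WT against 67.5 and 98.4 in dCD (log2 difference 1.32 ± 0.17). Of 15 measured p53 targets (22 listed), 8 rose, none by 2-fold, and none fell, with 4 to 8 called without 1 library. Btg2, an antiproliferative factor, read 33.9 and 32.2 in WT against 59.97 and 66.2 in dCD (log2 difference 0.91 ± 0.07). Of 22 measured sterol synthesis genes (26 listed), 7 rose and none fell, but only 1 to 12 were called without 1 library. Hsd17b7 was the member that rose at least 2-fold, with 21.2 and 19.8 in WT against 47.5 and 61.4 in dCD (log2 difference 1.36 ± 0.12). Heat shock chaperones were near the background, with 5 of 22 measured (23 listed) higher and 3 lower. The mitochondrial chaperonin Hspd1 fell, with 972 and 914 in WT against 534 and 526 in dCD (log2 difference -0.83 ± 0.05, adjusted p = 0.000877). Of 13 measured immediate early genes (22 listed), 7 rose and 2 fell. Junb rose, with 23.9 and 24 in WT against 37.4 and 39.5 in dCD (log2 difference 0.66 ± 0.06) and Atf3, which is also a target of ATF4, fell, with 21 and 22.8 in WT against 8.22 and 10.3 in dCD (log2 difference -1.16 ± 0.12).

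**Figure D4:**
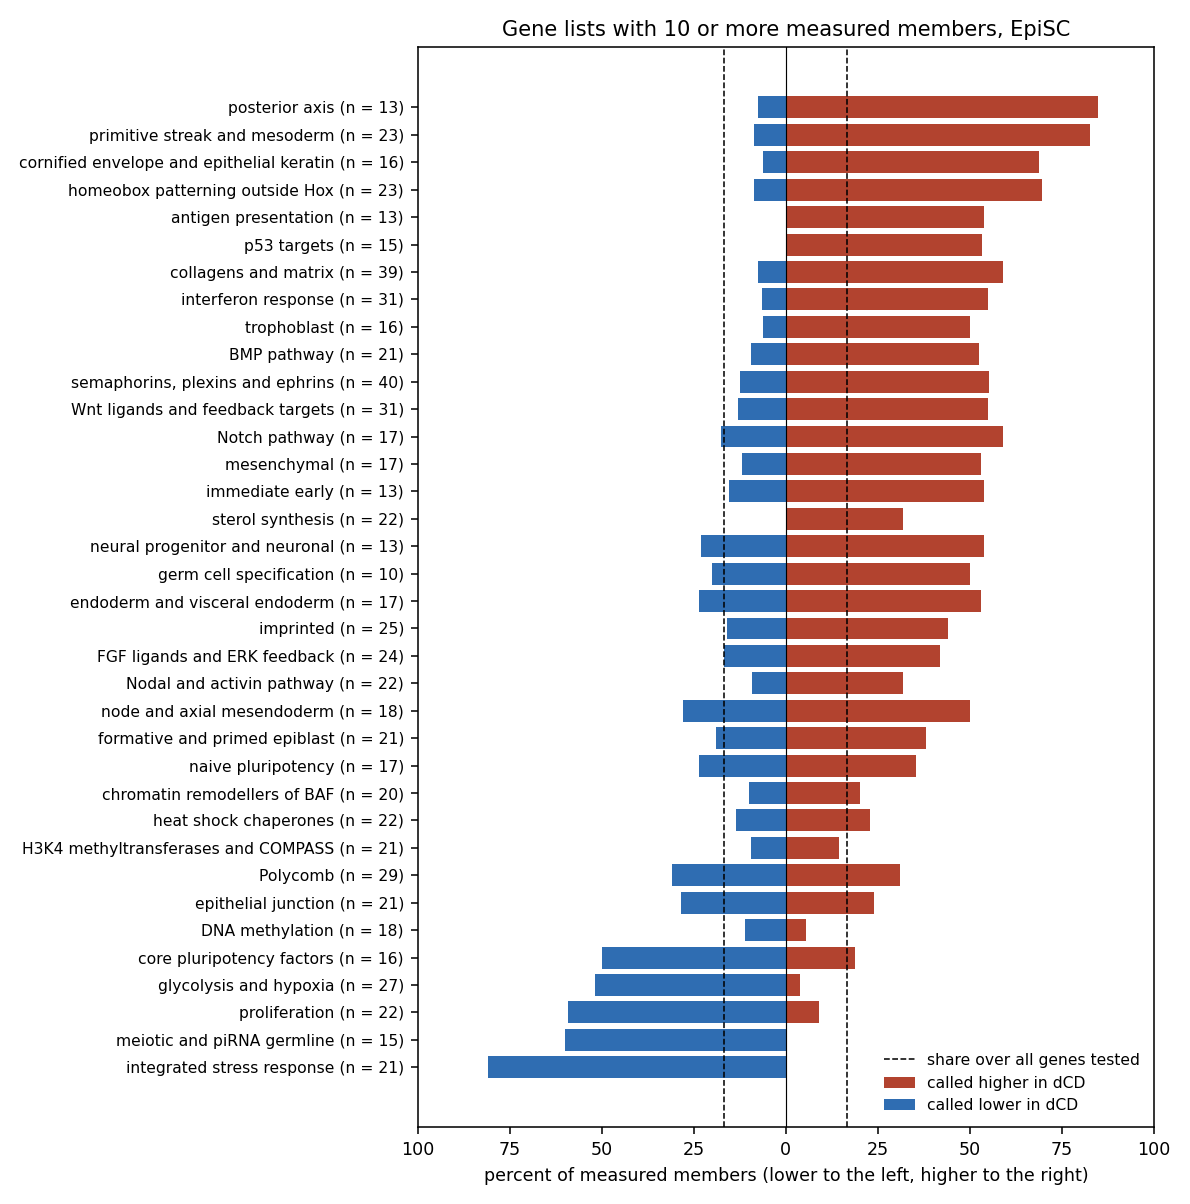
Share of the measured members of each gene list called higher (red, to the right) or lower (blue, to the left) in dCD EpiSC, in percent. Lists with 10 or more measured members are shown with their number, and dashed lines mark the 16.5% higher and 16.8% lower of all genes tested. The posterior axis and primitive streak lists extend furthest to the right and the integrated stress response list furthest to the left.

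In several lists the calls also rested on single libraries. Without WT replicate 2 the calls became 7 against 12 for the formative and primed epiblast, 8 against 14 for FGF signalling, 4 against 7 for germ cell specification, 6 against 11 for epithelial junctions, 9 against 15 for imprinted genes, 4 against 8 for heat shock chaperones, 9 against 15 for proliferation and 3 against 6 for BAF. Without dCD replicate 2 they became 5 against 8 for heat shock chaperones and 5 against 9 for the immediate early genes. For the Nodal and activin pathway they became 6 without dCD replicate 2 and 14 without WT replicate 1, against 9.

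Regulators of chromatin were read as lists too. Of 21 measured subunits of the COMPASS complexes (25 listed), 3 rose and 2 fell, shares of 14.3% and 9.52% that are under those of all genes, and 0 to 3 were called without 1 library. Of 29 measured Polycomb genes (31 listed, 1 through 1 group only), 9 rose and 9 fell, and the 18 calls became 7 without WT replicate 2 or dCD replicate 2. Phc1, a subunit of canonical PRC1, fell, with 160.2 and 184 in WT against 57.1 and 59.4 in dCD (log2 difference -1.54 ± 0.08, adjusted p = 0.000538), and Rybp, a subunit of variant PRC1, rose, with 58.2 and 57.6 in WT against 82.8 and 88.7 in dCD (log2 difference 0.56 ± 0.06). Of 20 measured BAF genes (23 listed), 4 rose and 2 fell, shares of 20% and 10% against 16.5% and 16.8% of all genes. Besides Dpf3, the difference of at least 2-fold was that of Phf10, a subunit of PBAF, at 215 and 265 in WT against 128 and 103 in dCD (log2 difference -1.05 ± 0.13, adjusted p = 0.00412). Of 18 measured DNA methylation genes (20 listed, 1 through 1 group only), 1 rose and 2 fell, Dnmt3l and the helicase Hells. These shares, 5.56% and 11.1%, are under those of all genes, and Dnmt3l passed the filter through WT only. Hells read 164 and 167 in WT against 124 and 115 in dCD (log2 difference -0.47 ± 0.06, adjusted p = 0.00353).

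Stage-specific genes that the study had defined from its single-cell RNA-seq data, not from these libraries, were read in the same way. Of 504 measured EpiSC genes (546 listed), 203 rose and 71 fell (median log2 difference 0.19). Of 318 measured EpiLC genes (389 listed), 42 rose and 122 fell (median -0.20). Genes of the later stage were thus higher and those of the earlier stage lower more often than the 16.5% and 16.8% of all genes. Of 344 measured ESC genes (493 listed), 79 rose and 78 fell, and of 325 measured genes of primordial germ cell-like cells (PGCLC; 389 listed), 52 rose and 108 fell (median -0.16). Of the genes that the study linked to PGCLC enhancers, 34 of 181 measured rose and 53 fell. Within them, Group I enhancers, which the study selected for higher H3K4me1 in EpiLC than in EpiSC, gave 27 higher and 44 lower of 148, and Group II enhancers 17 higher and 24 lower of 81. The groups share genes, since a gene can be linked to enhancers of both. The shares were 18.2% higher and 29.7% lower in Group I, and 21% higher and 29.6% lower in Group II. The medians were -0.10 for Group I and -0.05 for Group II. These counts rest on WT replicate 2 in particular. Without it the calls dropped to 168 of the EpiSC, 81 of the EpiLC, 83 of the ESC and 87 of the PGCLC genes, and to 49 of the enhancer-linked genes (42 in Group I and 22 in Group II).

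Promoters of the genes with large differences had fewer CpG dinucleotides than those of all genes. The ratio of observed to expected CpG in the 300-base window had a median of 0.772 over the 9087 tested genes with a window, 0.733 for genes called higher and 0.748 for genes called lower. It was 0.642 for 279 genes at least 2-fold higher and 0.497 for 194 genes at least 2-fold lower. A ratio under 0.4 was found for 12.4% of all genes, for 25.1% of the 2-fold higher and for 39.7% of the 2-fold lower genes. Windows are from RefSeq. Along the genome, the chromosome medians of the log2 difference lay between -0.04 and 0.09 for the autosomes and chromosome X. The highest was that of chromosome 14, with 65 of 284 genes higher and 23 lower, and it was 0.02 to 0.13 under the alternatives tried.

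The effect of dCD in EpiSC was set against that in EpiLC, taken after 2 days of differentiation from the same WT and dCD lines with 2 libraries each. The difference of the effects, tested over all 8 libraries, passed for 1319 of 12717 genes (10.4%), with the EpiSC effect above that in EpiLC for 465 (3.66%) and below it for 854 (6.72%). With quantile normalization the split was 623 above and 728 below. The count was 426 to 717 without any 1 of the EpiSC libraries, 475 and 568 without EpiLC WT replicate 1 or 2, and 3225 without EpiLC dCD replicate 2. Of the 3994 genes called in EpiSC, 911 were also called for the difference. Of the 21 integrated stress response genes, 14 were below and none above. Chac1 read 27.1 and 27.6 in WT against 36.3 and 35.3 in dCD in EpiLC, and the EpiSC effect was lower by a log2 difference of -2.42 ± 0.30 (adjusted p = 0.00476). Asns read 189 and 203 in WT against 295 and 245 in dCD in EpiLC (difference of effects -1.51 ± 0.22, adjusted p = 0.00866). In EpiLC neither gene was lower in the dCD libraries.

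Germline genes also differed between the stages. Sycp3 read 24.5 and 26.2 in WT against 39.3 and 32.8 in dCD in EpiLC (difference of effects -3.74 ± 0.27, adjusted p = 0.00106), and Fmr1nb 42 and 49.3 in WT against 87.9 and 59.5 in dCD (difference of effects -5.12 ± 0.31, adjusted p = 0.000769). Trap1a, which fell in EpiSC, read 6.68 and 7 in WT against 86.4 and 66.5 in dCD in EpiLC (difference of effects -5.05 ± 0.26, adjusted p = 0.000452), and Dnmt3l 7.94 and 8.31 in WT against 33.2 and 25.9 in dCD (difference of effects -3.49 ± 0.22, adjusted p = 0.000769). These genes were higher in dCD in EpiLC or near WT, and lower in dCD in EpiSC. Xlr3b, in contrast, was higher in dCD at both stages, with 1.37 and 2.04 in WT against 18.5 and 16.7 in dCD in EpiLC (difference of effects 0.20 ± 0.23, adjusted p = 0.671).

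Of the primitive streak genes, 8 were above and 3 below the EpiLC effect. Wnt3 read 7.7 and 7.34 in WT against 6.94 and 5.45 in dCD in EpiLC (difference of effects 1.90 ± 0.25, adjusted p = 0.00623) and did not pass the test there (adjusted p = 0.476). T was among the 3 below, with 4.25 and 3.75 in WT against 17.8 and 18.2 in dCD in EpiLC (difference of effects -1.44 ± 0.18, adjusted p = 0.00448), where the fold was larger at a level far under that of EpiSC. Cer1 and Chrd were near absent in EpiLC, with 0.0329 and 0.0168 in WT against 0.0611 and 0.0157 in dCD for Cer1 and 1.17 and 1.03 in WT against 1.09 and 1.21 in dCD for Chrd. Of the 31 interferon genes, 9 were below the EpiLC effect and 1 above it. Irgm1 read 3.37 and 3.51 in WT against 32.7 and 35.8 in dCD in EpiLC (difference of effects -1.51 ± 0.22, adjusted p = 0.00871).

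**Figure D5:**
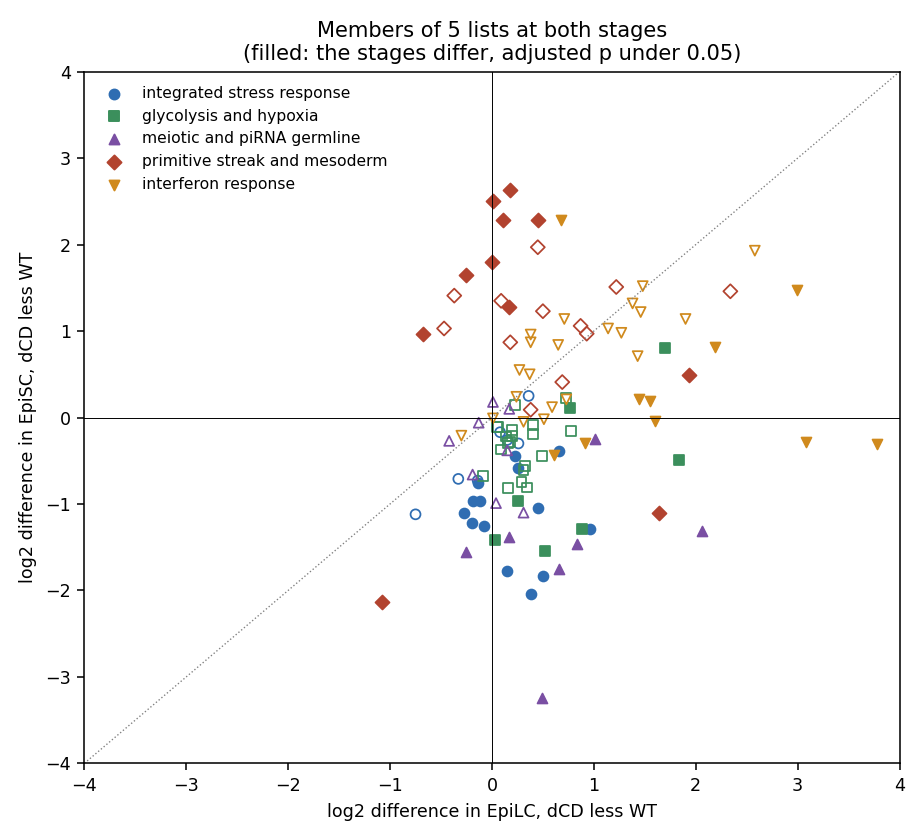
Log2 difference between dCD and WT in EpiSC (vertical axis) against that in EpiLC (horizontal axis) for members of 5 gene lists, 1 point per gene. Filled points passed the test of the difference between the stages, and the dotted line marks equal effects. All but 1 of the 21 integrated stress response genes lie below 0 in EpiSC, and 14 of them passed as below the EpiLC effect, while of the streak genes 8 passed as above it and 3 as below.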

How the data were processed

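Polyadenylated RNA was sequenced from TruSeq stranded libraries of WT and dCD EpiSC and EpiLC, 2 per group. The deposited values are a signal per gene, called TPM in the file headers, that the authors made with kallisto and sleuth at gene level on Ensembl release 96 (mm10). The sources used here do not name their versions. The plan had assumed TPM. Column sums differ between libraries, and whether a scaling factor was applied after TPM is not given in the sources used here, so the values are treated as a signal. No counts are kept, so depth is unknown. A further 6 columns of ESC values matched no labelled sample and were not used.

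Identifiers were joined to GENCODE release M21 (GRCm38) for 32013 of 32334 genes. Some genes of chromosomes 13 to 19 are not analysed here (69.7% of coding genes are listed, against 98.4% elsewhere). Values were taken as log2(value + 1), which understates the fold of low genes. A gene was tested where 2 or more of the 4 EpiSC libraries reached 1. 539 genes met this through 1 group only, and such a gene could only be higher in that group. Named genes that passed through dCD only include Msgn1, Mesp1, Col5a2, Nxph4, Nr0b1, Xlr3b, Sema3a, Gata3, Meis1, Msx2, Hoxd1 and Hoxa10. Those that passed through WT only include Fmr1nb, Mageb16, Sycp3, Syce3, Dnmt3l, Noto, Zfp42, Gdf1 and S100a4. Differences are dCD less WT, fitted on the 4 EpiSC libraries in R 4.3.3 (limma 3.58.1, eBayes with its trend option), with p-values adjusted by Benjamini and Hochberg over 11968 genes and calls at an adjusted p under 0.05. Errors beside log2 differences are standard errors. The difference between stages was fitted on all 8 libraries. The script was tested on simulated data. Symbols shared by several identifiers (26) were not named.

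Named genes were the 15 highest and 15 lowest log2 differences among called genes with a mean of at least 5 and no overlap of the groups, up to 4 members of each list with the smallest p, members that make up a small count, and a panel of pluripotency, germ cell and COMPASS genes. Of the Hox genes, 1 measured member is not reported here. The members and lists were chosen with earlier results of these data known, so lists have counts and medians only. A gene can be in more than 1 list, so the counts of different lists are not independent. The share of a list with a motif describes the promoters of its members and not the effect of dCD. Promoter windows, from 250 bases before to 50 after the RefSeq start (GRCm38.p6), were available for 9087 tested genes. Alternatives were other pseudocounts (0.1 and 5), no filter or a mean of at least 5, quantile normalization, removal of mitochondrial genes, no variance trend, a replicate block, all 8 libraries in 1 fit and leaving out each library.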

Additional observations from a re-analysis of the deposited data

Results flagged for a closer look

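The dCD effect differed between EpiSC and EpiLC, at an adjusted p under 0.05 for the difference of the effects in the fit of all 8 libraries, for the following genes of the report, each with the log2 difference in EpiSC less that in EpiLC. Among streak, node and mesoderm genes, the EpiSC difference lay above that of EpiLC by 1.84 for Rspo3, 2.18 for Msgn1, 1.90 for Wnt3, 2.49 for Mixl1, 2.45 for Evx1, 1.79 for Eomes, 2.53 for Frzb and 1.02 for Dkk1. Below that of EpiLC were -1.44 for T, -2.75 for Apela, -1.04 for Wnt8a, -2.79 for Cer1, -2.61 for Chrd, -3.17 for Foxj1, -1.84 for Noto, -1.05 for Shh and -0.93 for Nog. For signalling genes, the EpiSC difference lay above that of EpiLC by 3.16 for Wnt5a, 1.40 for Wnt11, 1.26 for Bmp4, 3.35 for Msx1, 2.01 for Msx2, 2.51 for Hey1 and 1.55 for Nrarp. It lay below, with -1.41 for Fgf4, -2.58 for Fgfbp1, -1.64 for Mfng and -1.33 for Dtx1. For pluripotency genes, the EpiSC difference lay above that of EpiLC by 1.76 for Nr0b1. Below that of EpiLC were -2.21 for Zfp42, -1.56 for Dppa5a, -2.23 for Esrrb and -0.85 for Sox2. For germline and X-linked genes, the EpiSC difference lay above that of EpiLC by 1.46 for Tfap2c and 2.07 for Kit. It lay below, with -3.74 for Sycp3, -2.42 for Syce3, -1.30 for Tdrkh, -2.67 for 4930447C04Rik, -3.49 for Dnmt3l, -5.12 for Fmr1nb, -3.40 for Mageb16 and -5.05 for Trap1a.

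For patterning and neural genes, the EpiSC difference lay above that of EpiLC by 2.38 for Six2, 2.08 for Meis1, 1.95 for Hoxd1, 3.19 for Hoxa10, 2.98 for Fabp7, 2.94 for Npy, 2.78 for Cbln1, 1.36 for Gata4 and 1.19 for Gata3. Below that of EpiLC were -1.27 for Stmn2. For matrix, adhesion and guidance genes, the EpiSC difference lay above that of EpiLC by 1.32 for Fn1, 1.65 for Col5a2, 4.89 for Col3a1, 1.19 for Col1a1, 3.82 for Cdh11, 2.53 for Sema3a, 1.18 for Epha4, 1.57 for Sprr2a3 and 1.59 for Plet1. It lay below, with -0.96 for Epcam. For interferon, stress and metabolic genes, the EpiSC difference lay above that of EpiLC by 1.61 for Usp18, 1.67 for Hsd17b7 and 1.55 for Ccnd2. Below that of EpiLC were -1.51 for Irgm1, -1.18 for Mthfd2, -1.03 for Slc7a5, -1.92 for Pck2, -2.42 for Chac1, -1.51 for Asns, -2.33 for Trib3, -2.18 for Ddit4, -2.06 for Pdk1, -1.45 for Slc16a3, -0.91 for Slc2a3 and -1.76 for Atf3. For the other genes, the EpiSC difference lay above that of EpiLC by 2.96 for Dpf3, 11.36 for Gm12918 and 2.36 for Nxph4. It lay below, with -1.10 for Arhgap45, -3.66 for Gm20486, -1.81 for Gm48348, -2.55 for Mef2b, -1.18 for Phf10, -1.57 for Pim2, -2.97 for Pla2g1b and -1.55 for Slc27a2. For Cer1, Dkk1, Dpf3, Evx1, Hoxd1, Msgn1, Msx2, Noto, Npy, Nxph4, Rspo3, Shh, Usp18, Wnt11 and Wnt5a, all 4 EpiLC values were under 1, so that on the scale of log2(value + 1) no EpiLC effect of more than 1 in size was possible.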

How the results depend on the processing

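With 2 libraries in each group, the number of calls depends on single libraries. The 3994 calls in EpiSC became 2330 with no filter on low values and 1842 when all 8 libraries shared 1 fit, and ranged from 1718 to 3785 over the fits that left out 1 library. With no filter, 21250 genes were tested. Calls among the listed genes, 405, became 242 with no filter and ranged from 273 to 391 without 1 library. The 1319 genes called for the difference between stages became 553 with a mean of at least 5, 825 with mitochondrial genes removed and 304 with the replicate block, and ranged from 426 to 3225 without 1 library. The cause was not tested. The count of calls in EpiSC stayed within 1.5 times under the other pseudocounts of 0.1 and 5, a mean of at least 5, quantile normalization, no variance trend and mitochondrial genes removed.

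The replicate numbers are shared by the groups, but no label pairs the samples and there are only 2 pairs. The differences of replicate 2 less replicate 1 in WT and dCD were uncorrelated over genes (r = -0.0147, 11968 genes). The replicate block gave 3219 calls and ended the call of 3 of the 169 named genes with a call. The median of chromosome 14, 0.09, moved to 0.06 with a pseudocount of 5, 0.02 with no filter, 0.04 with a mean of at least 5 and 0.13 with mitochondrial genes removed, and lay between 0.07 and 0.10 without 1 library.

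Of the 169 named genes with a call, 24 lost it with no filter, 31 with all 8 libraries in 1 fit, 11 without WT replicate 1, 16 without WT replicate 2, 3 without dCD replicate 1, 11 without dCD replicate 2 and 6 with no variance trend. None of them changed direction under any of these settings. Among named genes without a call, Esrrb had -0.23 to 0.30 over the fits without 1 library (-0.04 without WT replicate 2), Fgf5 had -0.19 to 0.22 (-0.07 without WT replicate 2), and Lefty1 had 0.01 with quantile normalization, 0.02 with mitochondrial genes removed and -0.77 to 0.72 without 1 library (0.08 without dCD replicate 2), against main log2 differences of 0.03, 0.01 and -0.02. Sycp1, at 0.10, had -0.17 to 0.36 without 1 library (-0.15 without dCD replicate 1). The depth of the libraries is unknown, so no counting error can be given for low genes.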
